A study of Mus musculus with 11 samples.

Results

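The genes described are 10 early response genes of the mouse heart, namely Egr1, Egr2, Egr3, Nr4a1, Nr4a2, Nr4a3, Ier2, Ier3, Klf4 and Btg2, out of 55513 genes counted. They were chosen by name, with earlier results of these data known. All 10 had counts and passed the filter on low counts in each comparison. Polyadenylated RNA was sequenced from the hearts of 11 C57BL/6J mice, all female and aged 8 weeks. In 8 of these mice a myocardial infarction (MI) was caused by permanent ligation of the left anterior descending (LAD) coronary artery, and the infarct with its border zone was taken 3 days after infarction. The A10i group comprised 4 mice that were given GI254023X, an inhibitor of the metalloprotease ADAM10, at 100 mg/kg in DMSO from an osmotic minipump. The DMSO group comprised 4 infarcted mice that were given the solvent alone, and the Sham group comprised 3 mice with sham surgery and DMSO, from which healthy heart tissue was taken on a day that the labels do not give. All 3 groups are of the same strain and received DMSO, and the inhibitor reaches the whole animal and not the heart alone. The 3 comparisons ask how the early genes differ after MI (DMSO against Sham), between inhibitor and solvent after MI (A10i against DMSO), and between treated infarct and healthy tissue (A10i against Sham).

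Early response genes, also called immediate early genes, are transcribed within minutes to hours of a stimulus without new protein synthesis, mostly through factors such as SRF, the ternary complex factors and CREB that are already present in the cell. Most of their products are transcription factors or regulators that act on later genes. In the heart they respond to stretch, growth factors, hypoxia and inflammatory signals, in muscle cells as well as in fibroblasts, vessel cells and leukocytes. The EGR proteins are zinc finger transcription factors, the NR4A proteins are orphan nuclear receptors that act without a known classical ligand, Klf4 is a zinc finger factor of the Krüppel-like family, Ier2 and Ier3 encode small stress-responsive proteins, and Btg2 encodes an antiproliferative protein that binds the CCR4-NOT deadenylase.

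Promoter sequence was matched by symbol in RefSeq tables of GRCm38.p6 for 7 of the 10 members, and Egr1, Egr3 and Ier2 were not matched. Each window held 250 bases before and 50 bases after the annotated start of transcription. The 3 NR4A promoters are shown because Nr4a1 and Nr4a3 had lower means in A10i than in DMSO mice whereas Nr4a2 did not, Ier3 and Btg2 because their A10i and DMSO mice did not overlap, and 1 of the 4 Egr2 starts, of 5 annotated, that carry a CArG box, the core of the serum response element, in the window. Printed are the bases before the start that lie outside annotated exons, on the strand of the gene, with capitals for matches to the CRE half-site, the EGR site, the CArG box and the NF-kB site on either strand.
Nr4a1 chr15:101266596-101266845 (+ strand): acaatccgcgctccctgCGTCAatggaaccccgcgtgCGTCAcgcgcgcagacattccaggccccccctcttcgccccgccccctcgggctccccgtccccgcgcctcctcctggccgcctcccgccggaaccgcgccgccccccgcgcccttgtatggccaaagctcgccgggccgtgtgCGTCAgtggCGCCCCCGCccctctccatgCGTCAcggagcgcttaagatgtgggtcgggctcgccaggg
Nr4a2 chr2:57124004-57124253 (- strand): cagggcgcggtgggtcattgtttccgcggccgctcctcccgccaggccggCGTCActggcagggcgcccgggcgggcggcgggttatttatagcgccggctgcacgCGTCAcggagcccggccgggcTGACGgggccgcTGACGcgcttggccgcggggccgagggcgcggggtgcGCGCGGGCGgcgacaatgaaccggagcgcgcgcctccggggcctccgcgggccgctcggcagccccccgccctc
Nr4a3 chr4:48045055-48045152 (+ strand): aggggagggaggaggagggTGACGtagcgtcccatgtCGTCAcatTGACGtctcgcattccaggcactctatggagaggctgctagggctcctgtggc
Ier3 chr17:35821463-35821683 (+ strand): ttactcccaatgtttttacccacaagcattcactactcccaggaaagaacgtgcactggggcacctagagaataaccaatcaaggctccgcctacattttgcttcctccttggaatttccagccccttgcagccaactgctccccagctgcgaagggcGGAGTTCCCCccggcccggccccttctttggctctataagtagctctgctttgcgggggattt
Btg2 chr1:134079156-134079405 (- strand): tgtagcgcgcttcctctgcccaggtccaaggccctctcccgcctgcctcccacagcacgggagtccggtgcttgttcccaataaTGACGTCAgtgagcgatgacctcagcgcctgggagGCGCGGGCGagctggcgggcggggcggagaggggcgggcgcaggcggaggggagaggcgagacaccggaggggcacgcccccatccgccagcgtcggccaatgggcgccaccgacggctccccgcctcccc
Egr2 chr10:67537619-67537868 (+ strand): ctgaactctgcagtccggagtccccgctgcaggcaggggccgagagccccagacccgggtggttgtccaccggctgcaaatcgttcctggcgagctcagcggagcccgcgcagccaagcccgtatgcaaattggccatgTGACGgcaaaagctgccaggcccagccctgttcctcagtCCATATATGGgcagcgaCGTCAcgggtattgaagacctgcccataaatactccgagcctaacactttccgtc

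All 3 NR4A promoters held 4 CRE half-sites (TGACG, the recognition element of CREB and ATF factors), of which the part printed for Nr4a3 shows 3. Btg2 held 2 that overlap in a palindrome, the Egr2 start shown held 2, Klf4 held 1 and Ier3 held 0. A CRE half-site was present in 20.8% of all 32851 promoter windows of this length. The EGR site (GCGNGGGCG) matched in Nr4a1, Nr4a2, Klf4 and Btg2, that is 4 of 7 members, and in 5.55% of all windows. The NF-kB site matched in Egr2 (at another of its starts), Nr4a1 (across the start, so not in capitals) and Ier3 and in 6.93% of all windows, and in Ier3 it overlaps an ETS core. The CArG box matched in Egr2 alone among the 7 members and in 1.63% of all windows. The ETS core (GGAA) matched in 7 of 7 members and in 96% of all windows, so it was not set in capitals, and the TATA box (TATAAA, searched on the strand of the gene) matched in 0 of 7 members and in 8.32% of all windows. These matches describe letters in the window and not bound factors.

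Most members span few bases of the genome. Their median span was 5368 bases, against 24588 bases over the 13614 protein-coding genes tested, and their median number of exons in the transcript with most exons was 3.5 against 9. Ier3 on chromosome 17 (35821684 to 35822923, GRCm38) and Ier2 on chromosome 8 (84661331 to 84662852) span 1240 and 1522 bases, with 2 exons and 1 exon. Btg2 lies on chromosome 1 (134075170 to 134079120), Klf4 on chromosome 4 (55527143 to 55532466), Egr2 on chromosome 10 (67535475 to 67542188) and Egr3 on chromosome 14 (70077203 to 70082614). The NR4A genes are longer, with spans of 17174 bases for Nr4a2, 20527 for Nr4a1 and 41295 for Nr4a3, the 1 member above the median of all coding genes. They have 8 exons each, with Nr4a1 on chromosome 15 (101254269 to 101274795), Nr4a2 on chromosome 2 (57106830 to 57124003) and Nr4a3 on chromosome 4 (48045153 to 48086447). Egr1 lies on chromosome 18 (34859823 to 34864984). No exon of another counted gene shares bases with an exon of these 10 genes on either strand, so overlapping genes do not enter their counts.

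Total counts per mouse lay between 21702659 and 29511782. Levels are given as CPM, each count scaled to a common library total after TMM normalization, as mean ± SD with n = 3 Sham, 4 DMSO and 4 A10i mice. Fold changes and adjusted p-values were obtained with the quasi-likelihood test of edgeR, adjusted by Benjamini and Hochberg's method over all genes tested, at a threshold of 0.01, and each ± behind a log2 fold change is its standard error. Replicates are separate mice. The tissue is a mixture of cells, so fewer cells of a type and less RNA per cell cannot be told apart. RNA of cell type markers differed between the groups as well. The summed level of 12 neutrophil markers was 2.99 to 4.11 CPM in Sham mice, where Ly6g was at 0, 96.2 to 207 CPM in DMSO mice and 26.9 to 69.6 CPM in A10i mice. The sum of 7 cardiomyocyte markers was 70900 to 72100 CPM in Sham, 34000 to 49200 CPM in DMSO and 40500 to 55000 CPM in A10i mice. Macrophage markers summed to 231 to 253 CPM in Sham, 346 to 543 CPM in DMSO and 470 to 765 CPM in A10i mice. Fibroblast markers summed to 884 to 933, 1270 to 3970 and 3090 to 5910 CPM in the same order. Endothelial markers summed to 822 to 837 CPM in Sham, 640 to 772 CPM in DMSO and 776 to 879 CPM in A10i mice. Smooth muscle and pericyte markers summed to 960 to 1020, 659 to 798 and 843 to 898 CPM in the same order. Monocyte markers summed to 4.76 to 5.89 CPM in Sham, 51.6 to 140 CPM in DMSO and 33.8 to 83.2 CPM in A10i mice. Atrial markers summed to 10.2 to 24.3, 12.7 to 86.6 and 39.5 to 93.6 CPM in the same order. Red blood cell transcripts summed to 591 to 1300, 232 to 3700 and 1050 to 5020 CPM. DMSO and A10i mice overlapped in the cardiomyocyte, macrophage, fibroblast, monocyte, atrial and red blood cell sums. They did not overlap in the neutrophil and endothelial sums, nor in the sum of smooth muscle and pericyte markers. T cell and B cell markers stayed at or below 0.396 and 2.19 CPM in every mouse. The part of these differences in the levels of the early genes was not tested.

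In DMSO mice 3 days after MI, 9 of the 10 early genes rose against Sham, and Nr4a2 did not pass the test. The rises reached from 1.52-fold for Klf4 to 14.5-fold for Egr2, and the median log2 fold change of the 10 members was 1.58, against 0.00214 over all 17119 genes tested. Over all genes tested, 12.9% rose and 9.6% fell at this threshold (19.5% and 4.14% when scaled by library size alone), and 25.1% were higher in every DMSO mouse than in every Sham mouse, as were 9 of the members. In A10i mice, 8 of the 10 members rose against Sham, at a background of 13.8% of 17004 genes that rose, 9.09% that fell (20.2% and 3.39% when scaled by library size alone) and 24.7% that were higher without overlap. The exceptions were Nr4a1 and Nr4a2, and the median log2 fold change of the members was 0.89. Between A10i and DMSO mice, 9 of 10 members had a lower mean in A10i mice (8 of 10 with upper quartile normalization, where Egr3 was at 0.005231), with a median log2 fold change of -0.51 against 0.00345 over 16793 genes, but 0 of 10 passed the adjusted p of 0.01, as did 0% of all genes tested in edgeR.

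**Figure D1:**
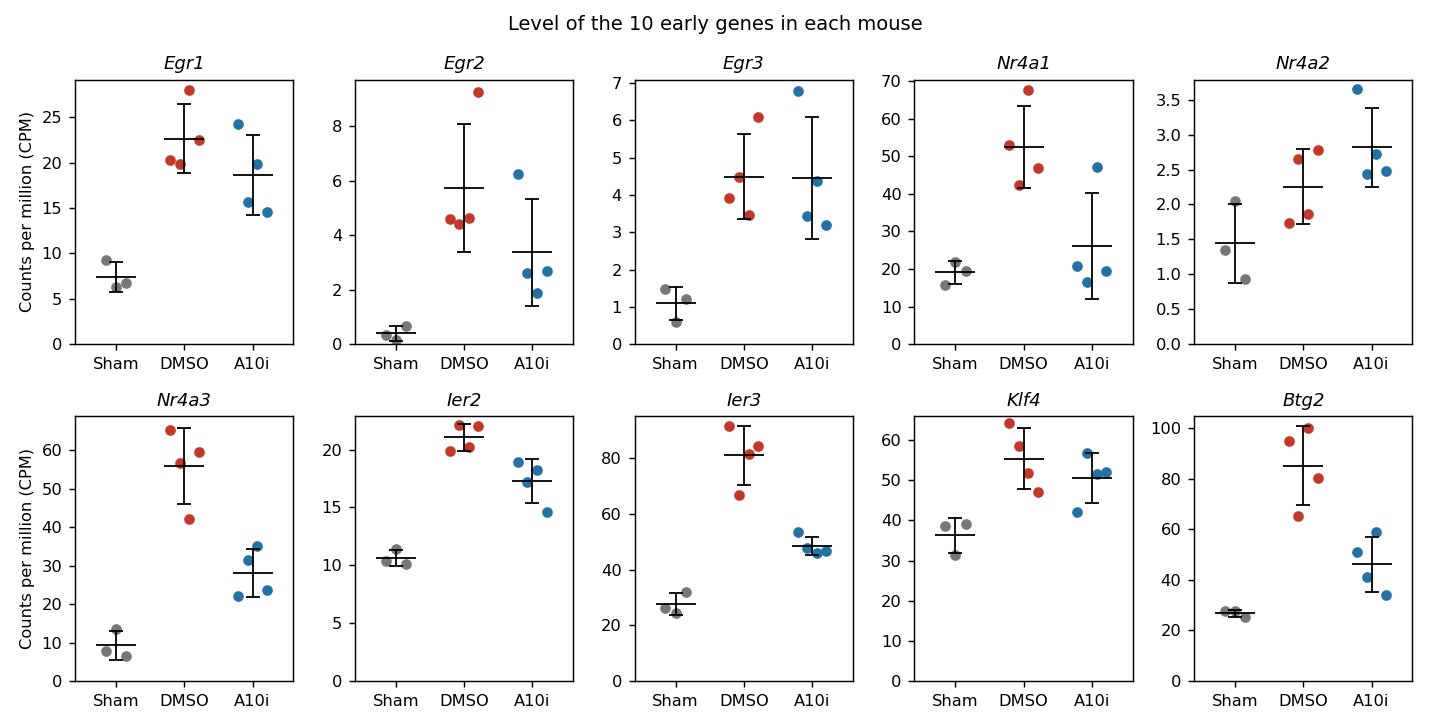
Level of each of the 10 early genes in CPM (vertical axes from 0) in each mouse of the Sham (n = 3), DMSO (n = 4) and A10i (n = 4) groups, with points for mice and black marks for mean ± SD. For Nr4a3, Ier2, Ier3 and Btg2 every A10i mouse lies below every DMSO mouse, and for Nr4a1 a single A10i mouse, A119 at 47.1 CPM, lies among the DMSO mice.

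Per base of transcript, Ier3 was the most abundant member and remained so in each group. As RPKM, which is CPM per kilobase of counted gene length, Ier3 stood at 24.3 ± 3.52 (SD, n = 3) in Sham, 71.6 ± 9.27 (SD, n = 4) in DMSO and 42.9 ± 2.94 (SD, n = 4) in A10i mice. In DMSO mice Btg2 followed with 31.0 ± 5.73 RPKM. Next were Klf4 at 18.2 ± 2.46 RPKM, Nr4a1 at 14.9 ± 3.13 RPKM and Ier2 at 13.8 ± 0.778 RPKM, of which Nr4a1 was not separated from either neighbour by more than their spread, whereas Klf4 was above Ier2 in every DMSO mouse. Nr4a3 stood at 9.35 ± 1.65 RPKM and Egr1 at 5.05 ± 0.840 RPKM. Egr2 at 1.69 ± 0.693 RPKM was above Egr3 at 1.02 ± 0.260 RPKM in every DMSO mouse, although the ranges of these genes overlapped. Nr4a2 was last with 0.556 ± 0.132 RPKM. In Sham mice Nr4a3 stood lower in this order, at 1.55 ± 0.631 RPKM beside Egr1 at 1.66 ± 0.366 RPKM, and Egr2 was last with 0.116 ± 0.0797 RPKM.

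Of the EGR genes, Egr1, the most widely expressed of the family and a classical target of ERK signalling, had the highest level per length. Egr1 measured 9.31, 6.28 and 6.69 CPM in the Sham mice S1, S2 and S3. It measured 20.3, 19.8, 28.0 and 22.5 CPM in the DMSO mice A105, A127, A128 and A129, and 24.2, 15.7, 19.9 and 14.6 CPM in the A10i mice A116, A117, A119 and A120. All infarcted mice were above all Sham mice, and the A10i and DMSO mice overlapped. Egr1 rose 3.05-fold in DMSO against Sham (log2 fold change 1.61 ± 0.174, adjusted p = 0.00024) and 2.52-fold in A10i against Sham (adjusted p = 0.00151). Between A10i and DMSO the log2 fold change was -0.28 ± 0.172 (95% interval -0.665 to 0.100, adjusted p = 0.511). It was -0.16 without A128 and -0.43 without A116.

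Egr2, known from nerve myelination and from lymphoid and myeloid cells, was nearly absent from healthy heart, with 8, 4 and 17 counts or 0.346, 0.150 and 0.685 CPM in S1, S2 and S3. In DMSO mice it measured 4.595, 4.42, 4.65 and 9.26 CPM (A105, A127, A128, A129), and in A10i mice 6.26, 2.63, 1.90 and 2.70 CPM (A116, A117, A119, A120). A129 stood above the other DMSO mice and A116 above the other A10i mice. The rise against Sham was 14.5-fold in DMSO mice (log2 fold change 3.86 ± 0.474, adjusted p = 0.000498) and 8.59-fold in A10i mice (3.10 ± 0.573, adjusted p = 0.00329), the largest of the 10 members in both comparisons. Without S3, the highest of the Sham mice, the log2 fold changes were 4.53 and 3.78, and the call in A10i mice was lost without S1 (adjusted p = 0.0182), S2 (0.014) or the filter on low counts (0.0236). The difference between A10i and DMSO, -0.76 ± 0.385 (95% interval -1.62 to 0.105, adjusted p = 0.428), did not pass the test, and the groups overlapped through A116. It was -0.43 without A129 and -1.24 without A116. Without A116 the exact permutation p of the mean log2 CPM was 0.0286 in place of 0.114. This is the smallest p that 3 against 4 mice can give, reached because the remaining mice did not overlap.

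Egr3, a related factor induced in many of the same settings, measured 1.47, 0.598 and 1.21 CPM in S1, S2 and S3. It measured 3.92, 4.49, 3.46 and 6.08 CPM in A105, A127, A128 and A129, and 6.78, 3.44, 4.38 and 3.19 CPM in A116, A117, A119 and A120. The ranges of the infarcted groups nearly coincided, and the same mice that were highest in Egr2, A129 and A116, were highest in Egr3. The rise was 4.11-fold both in DMSO (log2 fold change 2.04 ± 0.319, adjusted p = 0.00121) and in A10i mice (2.04 ± 0.358, adjusted p = 0.00226, and 0.012 without S3) against Sham. Against DMSO, the A10i mice had a log2 fold change of -0.0084 ± 0.261 with a 95% interval of -0.59 to 0.573, which leaves room for a difference of about this size in either direction.

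The group means of the NR4A genes did not follow 1 common order. Nr4a1 (Nur77), which is induced by many stimuli and is known to shape monocytes and macrophages, measured 15.8, 21.95 and 19.6 CPM in S1, S2 and S3. It measured 53.0, 42.2, 67.6 and 47.0 CPM in A105, A127, A128 and A129, and 20.9, 16.7, 47.1 and 19.6 CPM in A116, A117, A119 and A120. Thus 3 of 4 A10i mice lay within the Sham range, and A119 lay among the DMSO mice. Nr4a1 rose 2.73-fold in DMSO against Sham (log2 fold change 1.45 ± 0.175, adjusted p = 0.000469). In A10i against Sham the log2 fold change was 0.45 ± 0.351 (adjusted p = 0.345), and without A119 it was -0.0008557 (adjusted p = 0.996). Set against DMSO mice, the A10i mean was 50.3% lower, with a log2 fold change of -1.01 ± 0.312 (95% interval -1.71 to -0.307, adjusted p = 0.209), and -1.46 without A119 (adjusted p = 0.0762).

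Nr4a3 (Nor1), known in vessel wall and muscle cells, measured 7.71, 13.6 and 6.57 CPM in S1, S2 and S3. It measured 65.3, 56.7, 42.2 and 59.7 CPM in A105, A127, A128 and A129, and 22.04, 31.6, 35.0 and 23.6 CPM in A116, A117, A119 and A120. The 3 groups did not overlap, with A10i mice between Sham and DMSO mice. Nr4a3 rose 5.98-fold in DMSO (log2 fold change 2.58 ± 0.257, adjusted p = 0.00024) and 3.01-fold in A10i mice (1.59 ± 0.268, adjusted p = 0.00243) against Sham. The latter call was lost without S1 (adjusted p = 0.013), A116 (0.0112) or the filter on low counts (0.0238). The A10i mean was 49.9% lower than the DMSO mean, and the log2 fold change was -0.99 ± 0.176 (95% interval -1.39 to -0.597, adjusted p = 0.0736).

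Nr4a2 (Nurr1), best known from dopaminergic neurons, was the least abundant member after MI per length. It measured 1.34, 2.06 and 0.927 CPM in S1, S2 and S3, 1.73, 2.65, 1.86 and 2.79 CPM in A105, A127, A128 and A129, and 3.65, 2.44, 2.72 and 2.47 CPM in A116, A117, A119 and A120. DMSO mice overlapped with both other groups, whereas every A10i mouse was above every Sham mouse. The log2 fold change was 0.64 ± 0.303 in DMSO against Sham (adjusted p = 0.12), 0.96 ± 0.275 in A10i against Sham (adjusted p = 0.0189, 0.00781 in DESeq2 and 0.00258 without the filter on low counts) and 0.32 ± 0.216 in A10i against DMSO (95% interval -0.157 to 0.804, adjusted p = 0.55). In DMSO against Sham the log2 fold change was 0.98 without S2 (adjusted p = 0.0496) and 0.40 without S3 (adjusted p = 0.364). In A10i against DMSO it was 0.18 without A116. Nr4a2 was the single member with a higher mean in A10i than in DMSO mice.

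The difference between family members was tested on the log2 ratio of family members in each mouse, in 7 pairs that were chosen after the values had been seen. The log2 ratio of Nr4a2 over Nr4a3 lay between -5.18 and -4.38 in DMSO mice and between -3.65 and -2.57 in A10i mice, a difference of 1.33 (exact permutation test, two-sided, p = 0.0286, the smallest that 4 against 4 mice can give, and 0.1 adjusted over the 7 pairs). In Sham mice this ratio was -2.62 ± 0.145 (SD, n = 3). The log2 ratio of Egr2 over Egr3 was lower in every A10i mouse (-1.17 to -0.113) than in every DMSO mouse (-0.0213 to 0.6), by -0.781 on the mean (exact p = 0.0286, adjusted 0.1). Without A105, A128, A129 or A119 its exact p was 0.0571, although the groups still did not overlap. With 3 against 4 mice, 0.0286 is again the smallest possible p, and groups without overlap can give a larger one. Nr4a1 over Nr4a3 differed by -0.11 (exact p = 0.857) and Nr4a1 over Nr4a2 by -1.44 (exact p = 0.0857, and with 1 mouse left out 0.0286 without A119 to 0.143 without A116). Ier2 over Ier3 differed by 0.441 (exact p = 0.0571, and with 1 mouse left out 0.0286 without A127 to 0.0857), Egr1 over Egr2 by 0.528 (exact p = 0.286) and Egr1 over Egr3 by -0.253 (exact p = 0.429). With 1 mouse left out the former lay between 0.267 (without A119) and 0.733 (without A116), and was 0.276 without A129. The latter lay between -0.407 (without A129) and -0.0339 (without A128).

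**Figure D2:**
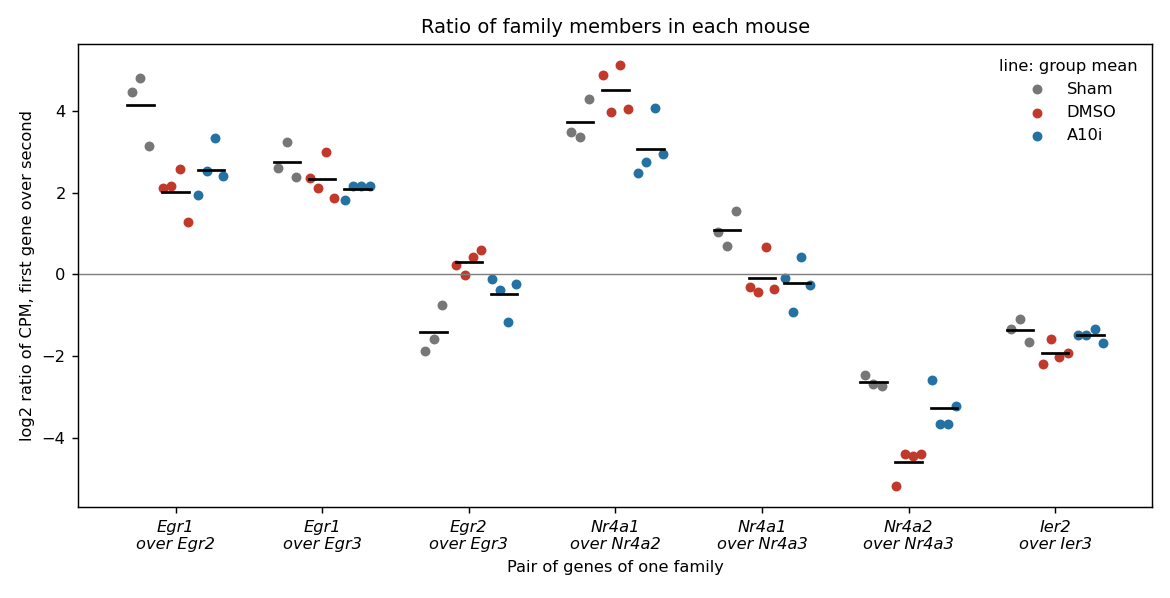
Log2 ratio of CPM of the first over the second gene for 7 pairs within the EGR, NR4A and IER families (vertical axis), with 1 point per mouse in Sham, DMSO and A10i and black lines for group means. DMSO and A10i mice are separated for Nr4a2 over Nr4a3 and for Egr2 over Egr3, and overlap in the other 5 pairs.

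Of the IER genes, Ier3 (IEX-1), a stress-induced modulator of cell survival, had the larger values and folds. It measured 26.2, 24.4 and 32.0 CPM in S1, S2 and S3, 91.6, 66.6, 81.6 and 84.3 CPM in A105, A127, A128 and A129, and 53.3, 47.8, 46.1 and 46.7 CPM in A116, A117, A119 and A120. The 3 groups did not overlap, and the A10i mice were tightly grouped, with a coefficient of variation of 6.86%. Ier3 rose 2.94-fold in DMSO (log2 fold change 1.55 ± 0.132, adjusted p = 0.000086) and 1.77-fold in A10i mice (0.82 ± 0.0990, adjusted p = 0.000357) against Sham. In A10i against DMSO its mean was 40.2% lower, with a log2 fold change of -0.74 ± 0.103 (95% interval -0.968 to -0.510). Its adjusted p of 0.048 was the smallest of the members in that comparison, and its unadjusted p ranked 8 among all genes tested. At a threshold of 0.05 in place of 0.01, Ier3 was the 1 member called, among 9 genes or 0.0536% of those tested that were lower. This call at 0.05 was lost with limma-voom (0.0594), library size alone (0.0807), a filter of at least 10 counts in every library (0.0575) and in 6 of 8 fits with 1 mouse left out (0.0831 to 0.198, all but those without A127 or A116).

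Ier2, a nuclear regulator of early transcription, measured 10.4, 11.4 and 10.1 CPM in S1, S2 and S3, 19.9, 22.1, 20.2 and 22.05 CPM in A105, A127, A128 and A129, and 18.9, 17.2, 18.2 and 14.6 CPM in A116, A117, A119 and A120. The groups did not overlap, but the highest A10i mouse, A116, lay close to the lowest DMSO mouse, A105. The rise against Sham was 1.98-fold in DMSO (log2 fold change 0.99 ± 0.0938, adjusted p = 0.00014) and 1.63-fold in A10i mice (0.70 ± 0.106, adjusted p = 0.000924). Between A10i and DMSO the log2 fold change was -0.29 ± 0.0962 (adjusted p = 0.234).

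Klf4 is a factor of endothelium and smooth muscle that is also used in reprogramming to stem cells. Of the members that passed the test against Sham, Klf4 had the smallest rise. It measured 38.5, 31.3 and 39.2 CPM in S1, S2 and S3, 64.2, 58.4, 51.7 and 47.2 CPM in A105, A127, A128 and A129, and 42.0, 56.7, 51.5 and 52.0 CPM in A116, A117, A119 and A120. Every infarcted mouse was above every Sham mouse, and A10i and DMSO mice overlapped widely. Klf4 rose 1.52-fold in DMSO (log2 fold change 0.60 ± 0.121, adjusted p = 0.00395) and 1.39-fold in A10i mice (0.48 ± 0.112, adjusted p = 0.00771) against Sham. Between A10i and DMSO the log2 fold change was -0.13 ± 0.119 (95% interval -0.394 to 0.136, adjusted p = 0.684). With 1 mouse left out it lay between -0.1986 (without A129) and -0.04668 (without A116). The call in DMSO against Sham was lost when S1, S2, S3 or A127 was left out (adjusted p = 0.0159, 0.0244, 0.0139 and 0.0114), and the call in A10i against Sham was lost in the joint fit of 11 libraries (0.0137) and without any 1 of S1, S2, S3, A117, A119 or A120 (0.0154 to 0.039).

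Btg2, also a target of p53, measured 27.6, 27.6 and 25.3 CPM in S1, S2 and S3, 95.1, 65.2, 100.0 and 80.4 CPM in A105, A127, A128 and A129, and 50.8, 41.0, 58.9 and 34.0 CPM in A116, A117, A119 and A120. The groups were ordered Sham, A10i and DMSO without overlap. Btg2 rose 3.17-fold in DMSO (log2 fold change 1.66 ± 0.144, adjusted p = 0.000105) and 1.73-fold in A10i mice (0.79 ± 0.169, adjusted p = 0.00637) against Sham. The latter call was lost without S1 (adjusted p = 0.0246), S2 (0.0217), S3 (0.028) or A116 (0.0348) and without the filter on low counts (0.04). The mean of A10i mice was 45.8% below that of DMSO mice, with a log2 fold change of -0.88 ± 0.186 (95% interval -1.30 to -0.465, adjusted p = 0.0986).

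**Figure D3:**
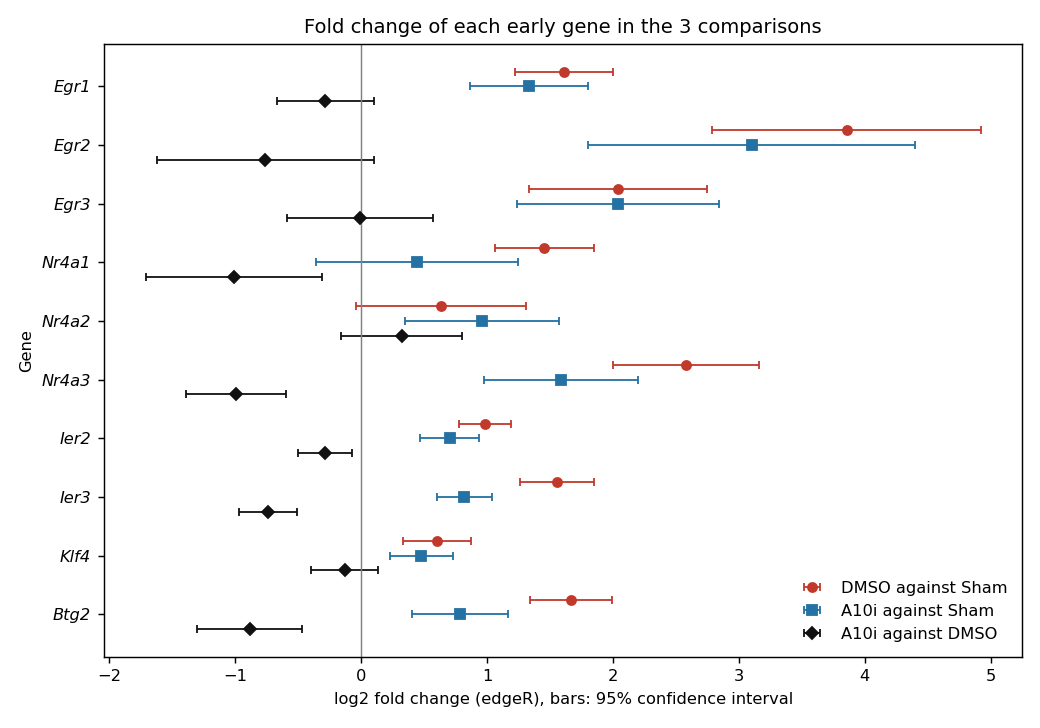
Log2 fold change of each early gene from edgeR with its 95% confidence interval (horizontal axis) in DMSO against Sham, A10i against Sham and A10i against DMSO. Intervals of A10i against DMSO lie below 0 for Nr4a1, Nr4a3, Ier2, Ier3 and Btg2, before adjustment for the number of genes.

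Read against the background, the difference between A10i and DMSO mice was as follows. The members were chosen with earlier results of these data known, so the shares describe them and are no independent test. At an unadjusted p of 0.05, 5 of the 10 members were lower in A10i mice (Nr4a1, Nr4a3, Ier2, Ier3 and Btg2) and 0 were higher, whereas 6.73% of all genes tested were lower and 7.1% were higher. Groups without overlap, lower in A10i mice, were found for 4 members (Nr4a3, Ier2, Ier3 and Btg2) and for 4.12% of all genes. For Ier2 this separation depended on the scaling, since scaling by library size without TMM factors moved its exact permutation p from 0.0286 to 0.0857. An exact permutation test of the mean log2 CPM (two-sided, 70 splits of 8 mice) adds nothing for these 4 genes, since groups of 4 without overlap always give the smallest p. For Nr4a1 the exact test gave p = 0.0857, and for Egr2 p = 0.114. DESeq2's Wald test on the same 8 mice, at its adjusted p under 0.01, called Nr4a3 (8.12e-05), Ier3 (1.24e-06) and Btg2 (0.00125), that is 3 members, and 0.677% of 18161 genes as lower. Its adjusted p for Nr4a1 was 0.0352. limma-voom called 0 members. The 3 comparisons share mice with each other, so their values are not independent of each other.

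**Figure D4:**
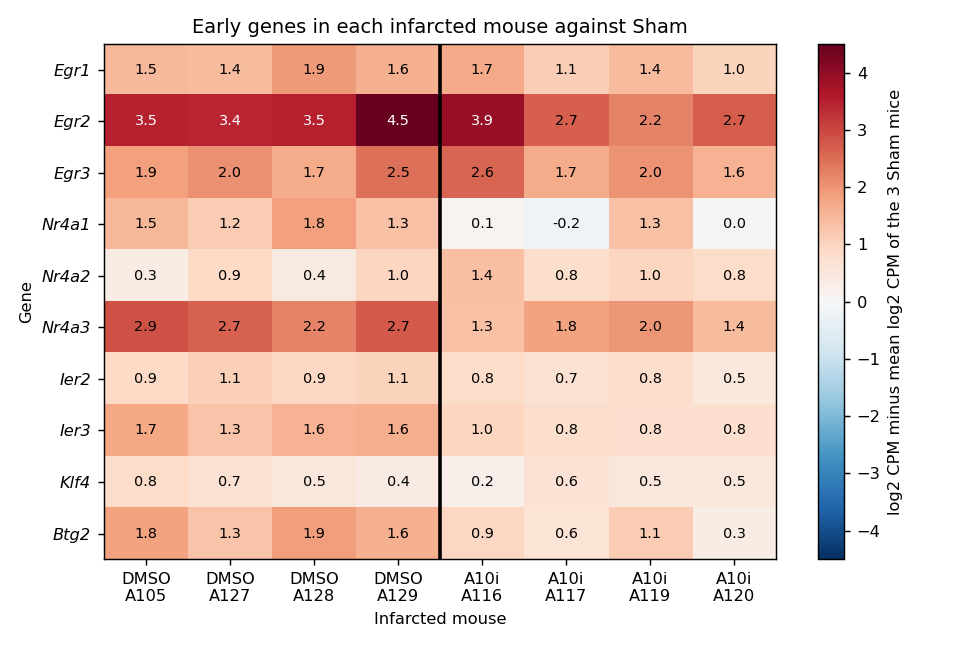
Log2 CPM of each early gene in each of the 8 infarcted mice, minus the mean log2 CPM of the 3 Sham mice, with red for levels above Sham and blue for levels below. Nr4a1 is at -0.18 to 0.14 in A116, A117 and A120 and at 1.31 in A119, and Egr2 reaches 4.48 in A129.

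The mice did not rank alike for every member. A120 had the lowest A10i value for Egr1, Egr3, Ier2 and Btg2, whereas A119 had the lowest for Egr2 and Ier3. A116 was the highest A10i mouse for Egr1, Egr2, Egr3, Nr4a2, Ier2 and Ier3 but the lowest for Klf4 and Nr4a3. A116 also had the highest sums of neutrophil (69.6 CPM), macrophage (765 CPM) and fibroblast markers (5910 CPM) among the A10i mice. A117 was close to it in the neutrophil sum (67.8 CPM). A119 had the lowest sum of neutrophil markers (26.9 CPM) and the highest of cardiomyocyte markers (55000 CPM). The part of the marker sums in the ranks of the early genes was not tested. Among all 11434 genes with a mean of at least 5 CPM in the infarcted mice, other than the members, those most like Egr1 over the 8 mice by Pearson's r were Hnrnpr (0.932), Arhgap29 (0.927), Atxn2l (0.925), Prmt3 (0.92) and Ppm1f (0.919). They were picked as the highest of 11434 values, and their log2 fold changes between A10i and DMSO lay between -0.17 and -0.0236.

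The early genes were set beside related genes of the same response. Partner and regulator genes had log2 fold changes between -0.42 and 0.36 in A10i against DMSO. Of the EGR relatives and co-repressors, Egr4 was at 0 counts in every mouse. Nab2, a co-repressor that EGR factors induce, was at 17.9 ± 1.84 CPM in DMSO and 14.9 ± 1.85 CPM in A10i mice (SD, n = 4 each, log2 fold change -0.27, unadjusted p = 0.0377, adjusted p = 0.327), and Nab1 had a log2 fold change of -0.08. The RXR genes, whose products pair with Nr4a1 and Nr4a2, were all slightly higher, from 0.09 for Rxrb to 0.12 for Rxrg, with 0 of 3 at an unadjusted p of 0.05. Of 16 other KLF genes 13 were tested, 6 were higher and 7 lower (median -0.1), of which 2 were lower at an unadjusted p of 0.05 (6.73% of all genes), with Klf9 highest (0.11) and Klf11 lowest (-0.42, adjusted p = 0.234). All 4 tested BTG and TOB genes were lower, from -0.03 for Btg1 to -0.24 for Tob1, with 0 at an unadjusted p of 0.05. Of 13 regulators of early transcription (SRF, TCF, CREB and MEF2 genes with their co-activators), 7 were higher and 6 lower (median 0.00371), and at an unadjusted p of 0.05, without overlap between the groups, 2 were higher and 1 was lower. Of all genes, 7.1% were higher and 6.73% lower at this p, and 4.02% and 4.12% without overlap. Mrtfb, an SRF co-activator, was highest (0.36, unadjusted p = 0.00105, adjusted p = 0.105, and 0.0111 in DESeq2) and Crtc1, a CREB co-activator, lowest (-0.36, adjusted p = 0.201).

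Other genes of the early response mostly had lower means in A10i mice. All 8 AP-1 genes with Atf3 were lower in A10i than in DMSO mice, with a median log2 fold change of -0.65, 6 of 8 at an unadjusted p of 0.05 and 5 of 8 without overlap between the groups. Atf3, a stress-induced member of the ATF family, was lowest, at 3.59 ± 0.657 CPM in Sham (n = 3), 50.8 ± 20.8 CPM in DMSO and 11.9 ± 1.88 CPM in A10i mice (SD, n = 4 each, log2 fold change -2.09 ± 0.253, adjusted p = 0.048). Jun, the core partner of AP-1 dimers, was the least different (-0.20, adjusted p = 0.679). Of 25 other immediate early genes 24 were lower, with a median of -0.352, 15 at an unadjusted p of 0.05 and 9 without overlap, where the shares of all genes tested were 6.73% and 4.12%. Socs3, the feedback inhibitor of cytokine signalling through STAT3, was lowest, at 3.56 ± 0.666 CPM in Sham, 44.7 ± 13 CPM in DMSO and 21.6 ± 7.13 CPM in A10i mice (log2 fold change -1.05 ± 0.268, adjusted p = 0.147), and Plk2 was highest (0.09). None of these genes passed an adjusted p of 0.01 in edgeR, and Atf3 was the 1 gene of the 2 lists with an adjusted p under 0.05. DESeq2's Wald test called 10 of them as lower at an adjusted p under 0.01, beside 0.677% of all genes, which were Atf3 (7.86e-13), Fosl2 (4.13e-05), Fosl1, Maff, Nfil3, Sik1, Myc, Csrnp1, Socs3 (0.00805) and Tiparp. Over all 7 lists of related genes, edgeR called 2 without the filter on low counts, 1 in the joint fit of 11 libraries and 1 without A105, where 43 of 31680, 11 of 17499 and 1 of 17072 genes were called in all. These lists were assembled with earlier results of the same mice known.

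After MI most of these genes had risen. In DMSO against Sham, 7 of 8 AP-1 genes and 19 of 25 other immediate early genes rose, with median log2 fold changes of 2.86 and 1.26, beside 12.9% of all genes. In A10i against Sham the counts were 6 of 8 and 12 of 25, with medians of 1.77 and 0.55, beside 13.8% of all genes. Gadd45b, a stress-induced gene, was the 1 gene of the 25 that fell there (log2 fold change -1.07, adjusted p = 0.00581; named after its value was seen). Over all 7 lists, 31 genes were called in A10i against Sham, 23 as higher and 8 as lower. Of all genes tested, 13.8% rose and 9.09% fell. Without S1, 19 genes of the lists were called in both directions together, where 6.22% of all genes rose and 3.13% fell. Of the 13 KLF genes tested, 3 rose and 2 fell in DMSO against Sham, and of the 13 regulators 0 rose and 1 fell, where 12.9% of all genes rose and 9.6% fell. In A10i against Sham, 1 KLF gene rose and 2 fell, and 1 regulator rose and 4 fell. The shares of all genes there were 13.8% and 9.09%.

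**Figure D5:**
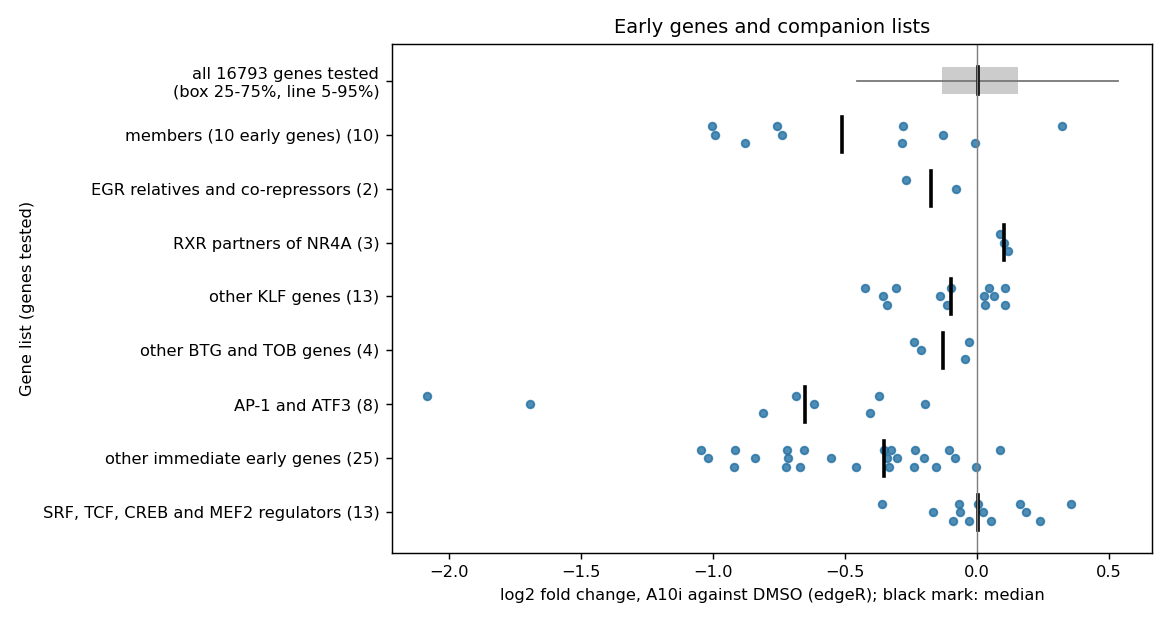
Log2 fold change of A10i against DMSO from edgeR (horizontal axis) for each tested gene of the early genes and of 7 companion lists, with black marks for list medians, above which the distribution of all 16793 genes tested is drawn. The medians of the early genes (-0.51) and of AP-1 and Atf3 (-0.65) lie to the left of the median of all genes (0.00345).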

How the data were processed

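Gene counts from RNA sequencing of 11 mouse hearts (4 A10i, 4 DMSO, 3 Sham) were used. Per the labels and methods, the authors made strand-specific poly(A) libraries, aligned read pairs to mm10, the assembly of GRCm38, with GSNAP and counted them per Ensembl gene with featureCounts (2.0.1), after bcl2fastq (2.20.0). The deposited values are raw counts per gene, whole numbers without normalization. The strand setting of the counting is not given in the sources used here. Reads that align equally well to near-identical copies may be missing from the counts. Symbols came from GENCODE M21, which names 55154 of 55513 identifiers, and promoter sequence from RefSeq (GRCm38.p6). Total counts lay between 21702659 and 29511782, and in all 15 pairs of replicates the counts differed by more than sampling noise (chi-square divided by its degrees of freedom, 4.04 to 60.8).

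For each comparison, only libraries of the groups compared entered the fit. It used filterByExpr, TMM and the robust quasi-likelihood F-test in edgeR 4.0.16 (two-sided, Benjamini-Hochberg) in R 4.3.3, at an adjusted p of 0.01. The study applied this threshold to DESeq2 with the IHW package, so counts of genes called by edgeR are not those of its test. Standard errors were derived from the log2 fold change and its F statistic, and 95% intervals from the t distribution with the total degrees of freedom. Log2 CPM used a prior count of 2. DESeq2 1.42.0, limma-voom (limma 3.58.1), other normalizations and filters, a joint fit of the 11 libraries, the threshold 0.05 and leaving out each library in turn served as alternatives. The test was tried on simulated counts with known changes. The members and lists were chosen with earlier results of these data known, and the family ratios after the values were seen. Named were all members, the highest and lowest gene of each companion list in A10i against DMSO, genes of these lists past the threshold, and the 5 genes most like Egr1. Motif matches were counted on both strands except for the TATA box.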

Additional observations from a re-analysis of the deposited data

Results flagged for a closer look

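A pair of levels stood apart from the other mice of their group, where the gap to the nearest mouse was, as a share of the whole range, above Dixon's 95% critical value for 4 samples. Egr2 in the DMSO mouse A129 measured 9.26 CPM against 4.42 to 4.65 CPM in the other DMSO mice, a gap of 0.952 of the range. A129 also had the highest sums of monocyte (140 CPM) and fibroblast markers (3970 CPM) of the DMSO mice. Nr4a1 in the A10i mouse A119 measured 47.1 CPM against 16.7 to 20.9 CPM in the other A10i mice, a gap of 0.861 of the range. A119 had the lowest sum of neutrophil markers of the A10i mice. Of 20 groups of 4 values examined, 2 stood apart in this way, and chance alone gives about 1 in 20. The part of the marker sums in these levels was not tested.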

How the results depend on the processing

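No paired analysis was possible because the groups share no replicate numbers. Between A10i and DMSO, the number of members past the threshold was 0 with edgeR (0% of all genes) and 3 with DESeq2 (0.677% lower). It was 1 without a filter on low counts (Ier3, 0.0789% of all genes lower) and 1 at an adjusted p under 0.05 (Ier3, 0.0536%). This number was 0 with each library left out, with limma-voom and under the other normalizations and filters. For A10i against Sham it was 8, and 4 to 7 with 1 library left out (4 without S1, 5 without S2 or S3), 9 with DESeq2 (Nr4a2 added), 6 without the filter (Egr2, Nr4a3 and Btg2 lost, Nr4a2 added), 7 in the joint fit of 11 libraries and 7 with at least 10 counts in every library (with 14.8%, 8.21%, 10.2% and 13.9% of all genes higher in these 4, against 13.8%), and for DMSO against Sham it was 9, and 8 to 9. The log2 fold change of Egr3 between A10i and DMSO changed sign with upper quartile normalization (0.005231), lay between -0.2815 and 0.1717 with 1 library left out, and on the scale of mean log2 CPM between -0.2659 and 0.1098. That of Nr4a1 in A10i against Sham lay between -0.0008557 (without A119) and 0.6148. The difference between A10i and DMSO in the log2 ratio of Nr4a1 over Nr4a3 lay between -0.322 (without A119) and 0.1485 (without A128). The cause was not tested. Library size alone in place of TMM moved the median log2 fold change of all genes to 0.208 in DMSO against Sham and 0.181 in A10i against Sham, and the 9 and 8 members called stayed called. Without S1, S2 or S3, the share of all genes that rose was 5.26% to 5.55% in DMSO against Sham and 6.15% to 6.46% in A10i against Sham. In the other settings of DMSO against Sham, this share was 7.89% (without the filter on low counts) to 21.5% (adjusted p under 0.05). The intervals of Egr1, Egr2, Egr3, Nr4a2 and Klf4 between A10i and DMSO include 0, and Egr2 rests on 4 to 17 counts in Sham mice.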
